A study of Mus musculus with 6 samples.

Results

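The 10 genes described here encode enzymes that build triacylglycerol and phospholipid precursors from glycerol-3-phosphate: Gpam, Gpat3, Gpat4, Agpat1, Agpat2, Agpat3, Lpin1, Lpin2, Dgat1 and Dgat2. They were chosen by symbol around Gpam, whose read counts were already known to be lower with melatonin, in order to ask whether the other isozymes and later steps fell with it. All 10 had a row among the 16289 genes of the deposited count table, and all 10 were tested. The libraries came from the tibialis anterior, a leg muscle, of male wild-type C57BL/6J mice aged 12 weeks, taken 14 days after an injection of glycerol, which destroys fibres and is followed by regeneration with fat deposits. In the glycerol+melatonin group, 3 mice had received the glycerol injection and melatonin, a pineal hormone. In the glycerol group, 3 mice had received the glycerol injection and a control treatment. The labels do not give the dose and route of melatonin and the nature of the control, and no uninjured muscle was analysed here. The tissue label names the tibialis anterior while the extraction text names a back muscle. Muscle fibre genes such as Acta1 and Myh4, which both muscles express, were abundant in all 6 libraries. Total counts were 41204718 to 47945178 per library in glycerol+melatonin muscle and 39310361 to 48879045 in glycerol muscle.

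Glycerolipid synthesis begins when a glycerol-3-phosphate acyltransferase (GPAT) attaches a fatty acid to glycerol-3-phosphate. An acylglycerol-phosphate acyltransferase (AGPAT) adds a further fatty acid to give phosphatidic acid, a lipin removes the phosphate to give diacylglycerol, and a diacylglycerol acyltransferase (DGAT) completes triacylglycerol. Gpam encodes the GPAT of the outer mitochondrial membrane, whereas Gpat3 and Gpat4 encode GPATs of the endoplasmic reticulum. In muscle this route supplies membrane lipid as well as the droplets of fibres and of fat cells that settle between them.

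Gpam (ENSMUSG00000024978) lies on the minus strand of chromosome 19 from 55067268 to 55127238 on GRCm38, and RefSeq gives it transcript starts 27761 bases apart. The 250 bases before each start are shown because Gpam was the gene with the large difference and because the counts, taken over the whole gene, do not separate the starts. Both windows are noncoding: the first, chr19:55127239-55127488 (minus strand, GRCm38.p6), lies before the gene, and the second, chr19:55099478-55099727 (minus strand), lies in an intron, before an alternative first exon. Capitals mark TCACNCCA, the core letters of a sterol regulatory element, and ATTGG, an inverted CCAAT box, on either strand.
Gpam start 1: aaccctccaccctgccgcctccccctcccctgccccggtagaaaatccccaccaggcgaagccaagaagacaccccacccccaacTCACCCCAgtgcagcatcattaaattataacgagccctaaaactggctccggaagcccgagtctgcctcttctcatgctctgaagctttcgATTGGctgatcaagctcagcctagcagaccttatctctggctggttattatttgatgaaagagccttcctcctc
Gpam start 2: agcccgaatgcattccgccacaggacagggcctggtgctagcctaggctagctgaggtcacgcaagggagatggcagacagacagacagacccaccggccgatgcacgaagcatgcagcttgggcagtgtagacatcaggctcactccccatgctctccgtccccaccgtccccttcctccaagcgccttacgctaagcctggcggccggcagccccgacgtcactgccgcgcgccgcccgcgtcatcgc
The first window held TCACCCCA from 165 to 158 bases before the start and ATTGG from 74 to 70 bases before it. The second window held neither, and had 66.0% G and C with 21 CG pairs, against 54.8% and 7 in the first. Of the 11 windows that RefSeq's table holds for 7 of the 10 genes, the first Gpam window was the single one with TCACNCCA, which 3.67% of the 32851 windows of that length hold. ATTGG was also present in 1 window of Agpat1 and 1 of Lpin2 (33.8% of all windows), and CACGTG, an E-box, in another window of Lpin2 (6.02% of all windows). These are matches of letters and say nothing on binding.

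Gpam stood at 18.9, 14.4 and 12.6 CPM (counts scaled to library size, with TMM factors between libraries) in glycerol+melatonin muscle, against 69.0, 77.9 and 53.7 CPM in glycerol muscle. Each glycerol+melatonin mouse was far below each glycerol mouse, and the spread within either group was small beside the gap. The means were 15.3 ± 3.22 and 66.9 ± 12.2 CPM (SD, n = 3 each), a log2 fold change of -2.13 ± 0.21 (SE), or 4.37-fold lower. Of the 16259 genes tested, 35 had a log2 fold change this low or lower (0.215%). As the set was built around this value, it is given as a description with no test. Leaving out any of the 6 mice kept it between -2.30 and -2.0. In bulk muscle, fewer cells that express a gene and less of its RNA per cell cannot be told apart.

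The other GPAT genes were close to level between the groups. Gpat4 stood at 37.3, 40.4 and 36.3 CPM in glycerol+melatonin muscle, against 37.5, 38.4 and 37.7 CPM in glycerol muscle. The 6 mice were nearly level and the groups overlapped. The log2 fold change of Gpat4 was 0.004 ± 0.130 (SE) with a 95% interval of -0.29 to 0.30 (adjusted p = 0.990, edgeR's quasi-likelihood test, adjusted by Benjamini-Hochberg over all genes), so a fall beyond 1.23-fold lies outside the interval. Gpat3, a low transcript here, stood at 5.505, 4.10 and 2.47 CPM in glycerol+melatonin muscle, against 3.78, 4.10 and 4.26 CPM in glycerol muscle. Both its highest and its lowest library were in glycerol+melatonin muscle, and the log2 fold change was -0.01 with an interval of -0.67 to 0.65 (edgeR adjusted p = 0.990). Gpat3 shares 1052 exon bases, 30.04% of its own, with the antisense gene 4930458D05Rik, which had 0.308 ± 0.068 CPM in glycerol+melatonin muscle and 0.509 ± 0.229 CPM in glycerol muscle. The labels do not say whether the counting used strand, so reads on the bases shared by the pair cannot be told apart. Gpat3 also shares 259 exon bases (7.396%) with Gm42987 on the same strand, a gene without a row in the table.

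**Figure D1:**
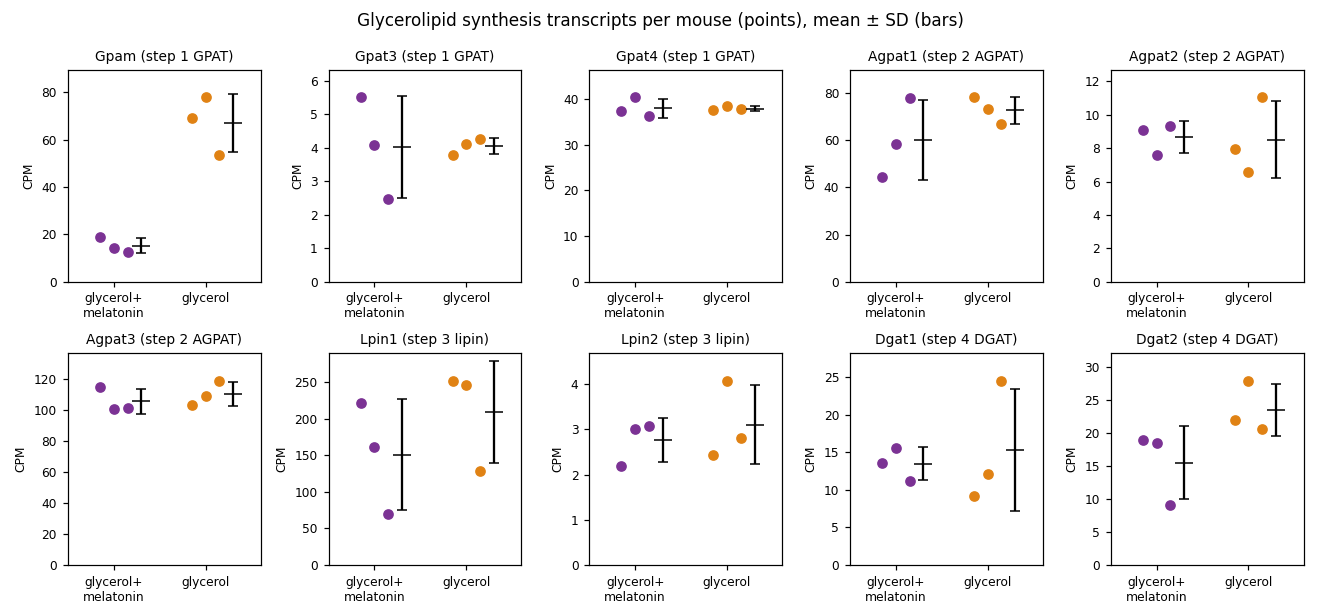
CPM of the 10 genes in each of the 6 mice (points; vertical axes start at 0 and differ between panels), with the mean and SD of 3 mice per group (bars). The points of Gpam lie at 12.6 to 18.9 CPM in glycerol+melatonin and at 53.7 to 77.9 CPM in glycerol, whereas those of Gpat4 lie at 36.3 to 40.4 CPM in glycerol+melatonin and 37.5 to 38.4 CPM in glycerol.

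The order of the GPAT transcripts by level was not the same in the 2 groups. Levels of different genes were compared as CPM per kilobase of the longest annotated transcript. On that scale the level of Gpam was 2.48 ± 0.522 in glycerol+melatonin muscle and 10.8 ± 1.98 in glycerol muscle (SD, n = 3 each). The level of Gpat4 was 6.89 ± 0.381 in glycerol+melatonin muscle and 6.87 ± 0.083 in glycerol muscle, and that of Gpat3 was 1.32 ± 0.497 in glycerol+melatonin muscle and 1.32 ± 0.080 in glycerol muscle. The ratio of the Gpam level to the Gpat4 level was 0.452, 0.320 and 0.310 in the glycerol+melatonin mice, against 1.64, 1.81 and 1.27 in the glycerol mice. Gpat4 was thus the leading GPAT transcript in each glycerol+melatonin mouse and Gpam in each glycerol mouse. Gpam made up 23.1 ± 2.80% of the summed GPAT level in glycerol+melatonin muscle and 56.6 ± 4.66% in glycerol muscle. The summed level was 10.7 ± 1.13 CPM per kilobase in glycerol+melatonin muscle and 19.0 ± 1.996 in glycerol muscle. Gpat2, which encodes the remaining GPAT, had no row in the table. These shares contain the Gpam value that the set was built on and carry no test.

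**Figure D2:**
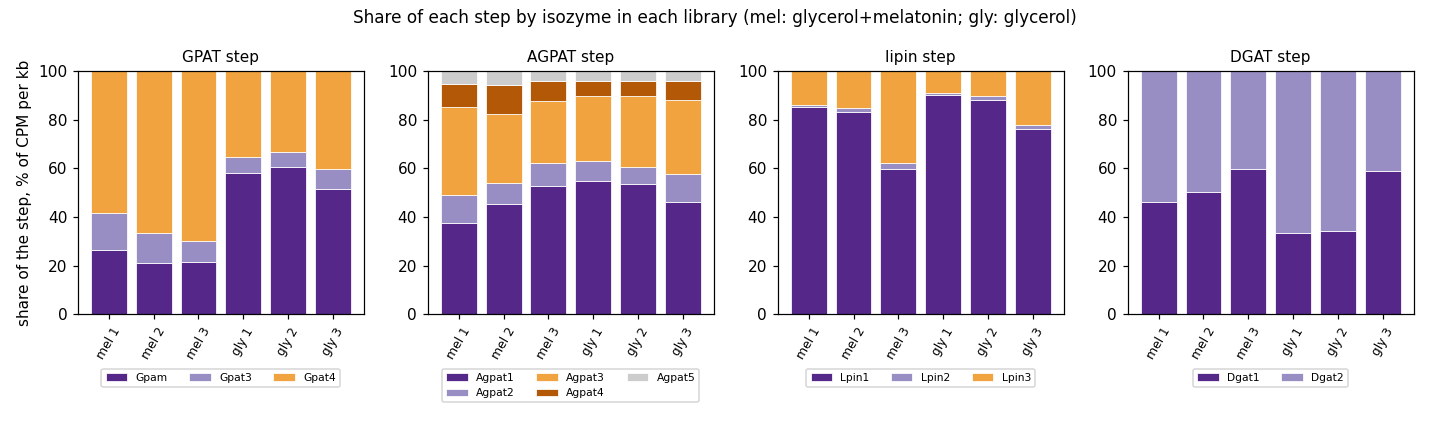
Share of each step's summed level (CPM per kilobase of the longest transcript, in percent) held by each isozyme in each library, with the 3 glycerol+melatonin libraries left of the 3 glycerol libraries. Gpam holds 21.3% to 26.3% of the GPAT level in glycerol+melatonin and 51.4% to 60.3% in glycerol.

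At the second step, 3 genes of the set encode AGPATs. Agpat1, an isozyme of the endoplasmic reticulum, had the highest level per length of these, 27.5 ± 7.69 CPM per kilobase in glycerol+melatonin muscle and 33.2 ± 2.63 in glycerol muscle (SD, n = 3 each). It stood at 44.2, 58.4 and 77.7 CPM in glycerol+melatonin muscle, against 78.1, 73.3 and 66.6 CPM in glycerol muscle. The glycerol mice lay close together, while the glycerol+melatonin mice ran from well below them to their level, and the log2 fold change was -0.27 ± 0.21 (SE; edgeR adjusted p = 0.490). It was -0.09 without glycerol+melatonin replicate 1 and -0.50 without glycerol+melatonin replicate 3. Agpat3, which can use polyunsaturated fatty acids, was steady, with 101 to 115 CPM in glycerol+melatonin and 103 to 119 CPM in glycerol muscle (log2 fold change -0.06, 95% interval -0.40 to 0.27). Agpat2, whose loss in humans causes a congenital lack of fat tissue, stood at 9.11, 7.60 and 9.32 CPM in glycerol+melatonin muscle, against 7.93, 6.56 and 11.05 CPM in glycerol muscle. Its groups overlapped and its log2 fold change was 0.03 (95% interval -0.49 to 0.54, edgeR adjusted p = 0.958). Agpat2 shares 64 exon bases with Egfl7 on the other strand, a vascular gene at 134 ± 29.9 CPM in glycerol+melatonin muscle and 79.8 ± 18.0 CPM in glycerol muscle. Agpat1 shares 101 with Egfl8, at 4.23 ± 0.153 CPM in glycerol+melatonin muscle and 2.33 ± 0.675 CPM in glycerol muscle.

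At the third step, Lpin1, the main lipin of muscle and fat, had the widest ratio of highest to lowest library after Gpam, 3.59. It stood at 221, 161 and 70.1 CPM in glycerol+melatonin muscle, against 252, 245 and 129 CPM in glycerol muscle. Replicate 3 was the lowest mouse of each group, and the groups overlapped. The log2 fold change was -0.47 ± 0.41 (SE) with a 95% interval of -1.40 to 0.47 (edgeR adjusted p = 0.541), the widest downward reach among the 9 genes other than Gpam. Without glycerol+melatonin replicate 3 it was -0.12, and without glycerol+melatonin replicate 1 it was -0.85. Lpin2, a lipin best known from liver, was scarce, with 2.19 to 3.06 CPM in glycerol+melatonin and 2.42 to 4.08 CPM in glycerol muscle (log2 fold change -0.17 ± 0.27). Per kilobase, Lpin1 held 75.9 ± 14.2% of the lipin level in glycerol+melatonin muscle and 84.8 ± 7.58% in glycerol muscle, with nearly all of the rest from Lpin3.

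At the last step, Dgat1 and Dgat2 encode enzymes of unrelated sequence that carry out the same reaction. Dgat2 stood at 18.9, 18.5 and 9.13 CPM in glycerol+melatonin muscle, against 22.0, 28.0 and 20.6 CPM in glycerol muscle. All glycerol+melatonin mice were below all glycerol mice, but replicate 3 lay far below the others of its group. The log2 fold change was -0.60 ± 0.28 (SE), with a 95% interval of -1.24 to 0.04 (edgeR adjusted p = 0.282). Dgat2 was the single gene besides Gpam whose groups did not overlap, so that 2 of the 10 were apart, where 26% of all genes tested were apart and 12.5% were apart and lower. Without glycerol+melatonin replicate 3 its log2 fold change was -0.33. Dgat1 stood at 13.5, 15.6 and 11.2 CPM in glycerol+melatonin muscle, against 9.19, 12.2 and 24.5 CPM in glycerol muscle. Glycerol replicate 3 was the highest library by a wide margin, and the log2 fold change of -0.19 ± 0.34 (SE; edgeR adjusted p = 0.796) became 0.34 without it.

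**Figure D3:**
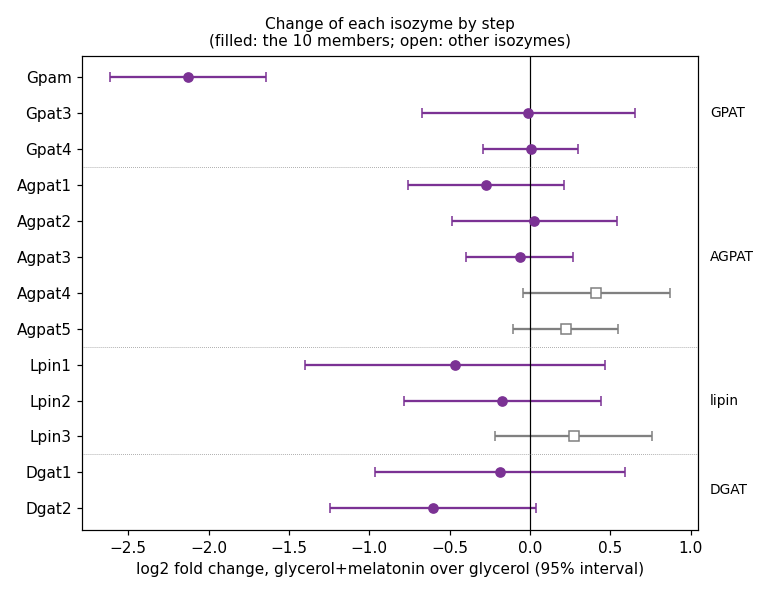
Log2 fold change of each isozyme, glycerol+melatonin over glycerol, with its 95% interval from edgeR, ordered by step (filled circles, the 10 genes of the set; open squares, Agpat4, Agpat5 and Lpin3). The intervals of all genes other than Gpam hold 0, and the lowest bound among the other members is -1.40, for Lpin1.

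Of the 9 genes other than Gpam, 0 passed an adjusted p of 0.05 by edgeR, where 0.0738% of all genes tested did (0.0185% higher and 0.0554% lower). By DESeq2, 0 of the 9 passed, where 4.63% of all genes did (2.03% higher and 2.6% lower). At an unadjusted p under 0.05, edgeR found 0 of the 9, against 19.5% of all genes. In the main fit all 9 intervals held 0, and none reached as low as the upper bound of the Gpam interval, -1.64. A change of the size seen in Gpam therefore lay outside each interval, while smaller changes did not: the intervals allowed a fall of up to 2.64-fold for Lpin1, 2.37-fold for Dgat2 and 1.95-fold for Dgat1. The median log2 fold change of the 9 was -0.17, with 7 of 9 below 0, beside a median of 0.02 and 48.3% below 0 over all genes. With library size alone as the scaling, which moved the median of all genes to 0.229, 4 of the 9 were below 0 and 9 of 9 below that median, against 8 of 9 below the median of all genes with TMM factors. The median of the 9 rested on single libraries: without glycerol replicate 3 it was -0.0026, with 5 of 9 below 0, and without glycerol+melatonin replicate 3 it was -0.07, while without glycerol replicate 1 it was -0.22, with 9 of 9 below 0. With the replicate block the median was -0.08, with 7 of 9 below 0. In that setting Lpin1 was at -0.56 ± 0.19 and Dgat2 at -0.66 ± 0.22 (SE; edgeR adjusted p = 0.231 and 0.227). Both had a smaller SE than in the main fit, while Dgat1 was at -0.06 ± 0.35.

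The summed RNA of cell type markers also varied between libraries, while cell proportions were not measured. The summed CPM of 9 muscle fibre markers was 132508, 110985 and 85905 in glycerol+melatonin muscle, against 132141, 144696 and 121490 in glycerol muscle, lowest in glycerol+melatonin replicate 3. The markers went both ways there: 5 of 9 were at their lowest, among them Acta1, Ckm and Myh4, which carry much of the sum, while Myh2 was at its highest. It is also the library in which 5 of the 10 genes also had their lowest value (Gpam, Gpat3, Gpat4, Lpin1 and Dgat2), as did 23.7% of all genes. Over the 8 measured of 9 fat cell markers, among them Adipoq and Plin1, the sum was 232, 121 and 114 CPM in glycerol+melatonin muscle, against 119, 92.2 and 424 CPM in glycerol muscle. Much of it came from Cfd (203 CPM in glycerol replicate 3) and Lipe (63.2 CPM in glycerol+melatonin replicate 3). The fat cell markers went both ways: 6 of 8 had a log2 fold change below 0, where 48.3% of all genes did. Lipe was at 0.03 and Adrb3 at 0.63, and 0 of the 8 had an unadjusted p under 0.05 by edgeR. Adipoq stood at 18.4, 9.65 and 6.02 CPM in glycerol+melatonin muscle, against 10.6, 5.18 and 37.8 CPM in glycerol muscle. Glycerol replicate 3, with the highest fat cell sum, also had the highest Dgat1, Agpat2 and Agpat3 values. The share of all genes highest in that library was not counted, and Agpat3 spanned only 1.18-fold over the 6 libraries. Summed over the listed markers, fibro-adipogenic progenitor genes were at 2172 to 2941 CPM in glycerol+melatonin and 3295 to 3746 CPM in glycerol muscle, macrophage genes at 593 to 829 CPM in glycerol+melatonin and 597 to 855 CPM in glycerol, and endothelial genes at 776 to 1261 CPM in glycerol+melatonin and 855 to 1049 CPM in glycerol. Much of the progenitor sum came from the collagen gene Col1a1. It was at 1396, 1895 and 2194 CPM in glycerol+melatonin muscle and at 2865 CPM in glycerol replicate 1. The progenitor markers also went both ways, with 5 of 8 below 0, where 48.3% of all genes were. By edgeR at an unadjusted p under 0.05, 3 of 8 were lower, where 9.39% of all genes were. These were Pdgfra, Dcn and Dpp4, whose groups did not overlap, where 12.5% of all genes were apart and lower. DESeq2 called Dcn as lower (adjusted p = 0.0127), as it did 2.6% of all genes, and Ly6a, Cd34 and Pi16 had values above 0. The leptin gene Lep and the brown fat gene Ucp1 had no row, and the other brown fat marker, Cidea, stood at 2.14 to 2.76 CPM in glycerol+melatonin and 1.61 to 4.73 CPM in glycerol muscle. The part of tissue makeup in these values was not tested. Leaving out single libraries does not test that part either, as the marker sums also differed among the remaining mice. For Gpam, such fits gave a log2 fold change of -2.0 without glycerol+melatonin replicate 3 and -2.26 without glycerol replicate 3.

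**Figure D4:**
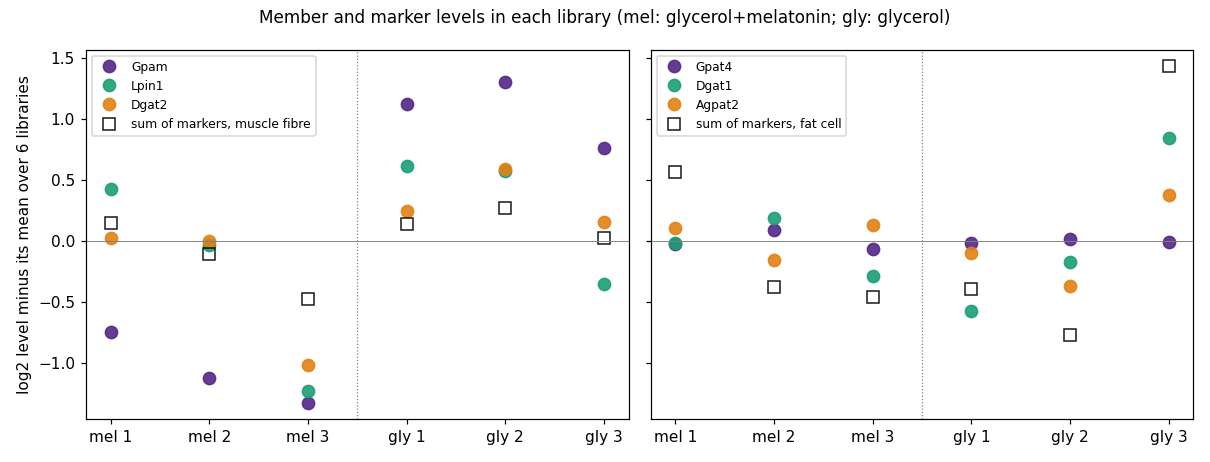
Log2 level of 6 genes of the set (CPM with a prior count of 2) and of 2 marker sums in each library, each minus its own mean over the 6 libraries, with the 3 glycerol+melatonin libraries left of the 3 glycerol libraries. Lpin1 and Dgat2 are lowest, at -1.23 and -1.02, in glycerol+melatonin replicate 3, where the fibre marker sum is at -0.48, and Dgat1 is highest, at 0.84, in glycerol replicate 3, where the fat cell marker sum is at 1.43.

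Genes that handle the substrates of the first step had a median below 0. Of 10 genes that make, use or carry glycerol-3-phosphate, acyl-CoA or their precursors, 0 passed by edgeR. Of these, 7 were below 0 and below the median of all genes, and the median log2 fold change was -0.31. At an unadjusted p under 0.05, 5 of the 10 were lower and 0 higher, where 9.39% and 10.1% of all genes were. DESeq2 called 2 as lower, Acsl1 and Gpd1, as it did 2.6% of all genes. Gpd1, which makes glycerol-3-phosphate in the cytosol, stood at 660, 446 and 275 CPM in glycerol+melatonin muscle, against 982, 963 and 728 CPM in glycerol muscle. The groups did not overlap, and the log2 fold change was -0.95 ± 0.31 (SE; edgeR adjusted p = 0.184). Acsl1, which activates long-chain fatty acids, stood at 119, 75.8 and 50.2 CPM in glycerol+melatonin muscle, against 242, 248 and 165 CPM in glycerol muscle (-1.42 ± 0.31, edgeR adjusted p = 0.132). On the log2 scale, the mitochondrial dehydrogenase gene Gpd2, whose enzyme uses up glycerol-3-phosphate, was at -0.73 ± 0.29 (-0.47 without glycerol+melatonin replicate 3). The arachidonate-preferring synthetase gene Acsl4 was at -0.39 ± 0.17 on that scale. In this list 7 of the 10 genes had their lowest value in glycerol+melatonin replicate 3, the library with the lowest fibre marker sum.

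Of 4 further isozymes measured, 3 had values above 0. Agpat4 was at 0.41 ± 0.20 (0.26 without glycerol+melatonin replicate 2), Agpat5 at 0.22 ± 0.14 (0.15 without that library) and Lpin3 at 0.27 ± 0.21 on the log2 scale, while Lclat1, a lysocardiolipin acyltransferase gene, was at -0.26 ± 0.19. These 4 genes, named after their values were seen, did not pass by edgeR or DESeq2, and 0 of the 4 had an unadjusted p under 0.05. The monoacylglycerol acyltransferase genes Mogat1 and Mogat2 had no row.

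The branch to phospholipids was mixed. Of 21 genes, 0 passed by edgeR, 7 were below 0 (11 without glycerol+melatonin replicate 2) and the median log2 fold change was 0.06. At an unadjusted p under 0.05, 3 were lower and 2 higher, where 9.39% and 10.1% of all genes were. Selenoi, which makes phosphatidylethanolamine from diacylglycerol, stood at 1.05, 0.886 and 1.36 CPM in glycerol+melatonin muscle, against 1.75, 2.40 and 4.92 CPM in glycerol muscle. Its groups did not overlap, and glycerol replicate 3 was far above the rest (-1.46 ± 0.41, edgeR adjusted p = 0.157). Without that library its log2 fold change was -0.91. DESeq2 called Selenoi alone in this list (adjusted p = 0.0172), where it called 4.63% of all genes. Pcyt1a, which encodes the pace-setting enzyme of phosphatidylcholine synthesis, had 60.7 ± 16.7 CPM in glycerol+melatonin and 104 ± 22.1 CPM in glycerol muscle, and Chpt1, which completes phosphatidylcholine, 44.0 ± 18.1 CPM in glycerol+melatonin muscle and 72.1 ± 6.82 CPM in glycerol muscle (SD, n = 3 each). Their log2 fold changes were -0.78 ± 0.25 and -0.71 ± 0.29 (edgeR adjusted p = 0.180 and 0.237), and that of Chpt1 was -0.42 without glycerol+melatonin replicate 3. Ptpmt1, a phosphatase on the way to cardiolipin, was at 0.38 ± 0.15.

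Genes that interconvert phosphatidic acid and diacylglycerol had 10 of 13 values above 0, where 48.3% of all genes were below 0. Their median was 0.14, and 0 passed by edgeR or DESeq2. The median was 0.07 without glycerol+melatonin replicate 3 and 0.27 without glycerol+melatonin replicate 2. At an unadjusted p under 0.05, 2 were higher and 1 lower, where 10.1% and 9.39% of all genes were. The diacylglycerol kinase gene Dgkz had 178 ± 35.3 CPM in glycerol+melatonin and 119 ± 11.2 CPM in glycerol muscle (0.58 ± 0.19, edgeR adjusted p = 0.180), the phospholipase D gene Pld2 was at 0.41 ± 0.16, and the lipid phosphate phosphatase gene Plpp3 at -0.47 ± 0.18. Of 4 genes for the budding of droplets from the endoplasmic reticulum, 0 passed by edgeR or DESeq2 and 0 had an unadjusted p under 0.05.

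**Figure D5:**
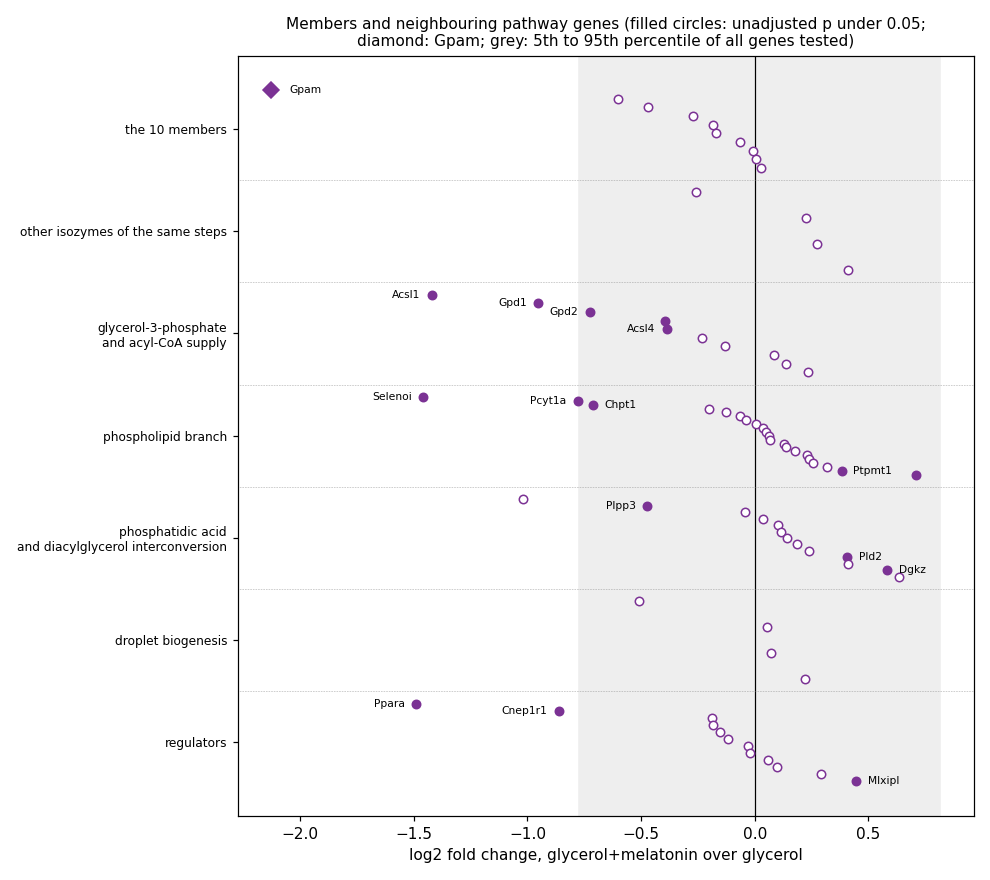
Log2 fold change (glycerol+melatonin over glycerol) of the 10 genes and of 64 genes in 6 neighbouring lists, 1 point per gene, with the 5th to 95th percentile of all genes tested (-0.77 to 0.82) in grey. Gpam lies at -2.13, the other 9 genes of the set lie within the grey range, and Acsl1, Gpd1, Selenoi, Pcyt1a, Dgkg, Ppara and Cnep1r1 lie left of it.

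Regulators of the pathway gave 0 of 12 by edgeR and 1 by DESeq2, which called 4.63% of all genes. Cnep1r1 encodes the partner of a phosphatase that dephosphorylates lipins. It stood at 14.4, 13.9 and 12.0 CPM in glycerol+melatonin muscle, against 25.1, 26.5 and 21.7 CPM in glycerol muscle. The groups were clearly apart, with little spread in either, and the log2 fold change was -0.86 ± 0.16 (SE; edgeR adjusted p = 0.114, DESeq2 adjusted p = 0.00135). Srebf1, whose product drives Gpam transcription in mouse liver and fat cells, named after its value was seen, was at 26.3 ± 4.18 CPM in glycerol+melatonin and 21.5 ± 1.97 CPM in glycerol muscle (0.29 ± 0.17, edgeR adjusted p = 0.368). Mlxipl, which encodes the carbohydrate-sensing factor ChREBP, was at 0.45 ± 0.19 (edgeR adjusted p = 0.237), and its groups overlapped. Ppara, a regulator of fatty acid oxidation, was at -1.49 ± 0.52 (edgeR adjusted p = 0.194) from 0.919 ± 0.353 CPM in glycerol+melatonin and 2.58 ± 1.47 CPM in glycerol muscle. Its groups overlapped too, with glycerol replicate 3 at 0.931 CPM. Its log2 fold change was -1.88 without that library and -1.13 without glycerol replicate 2.

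The genes nearest to Gpam over the 6 libraries are in none of the neighbouring pathway lists. As those lists hold 64 of the 16259 genes tested, this says little about the pathway. Likeness was the root mean square distance between log2 CPM values, each centred over the libraries. Prkg1, the gene of a cGMP-dependent kinase, was nearest at 0.147. Among the named genes it was followed by Slc19a2, a thiamine transporter gene (0.199), Kctd19 (0.238) and the phosphatase gene Ppm1a (0.258). Kctd19 was near the floor, at a mean of 0.0981 CPM in glycerol+melatonin and 0.522 CPM in glycerol muscle, so its distance rests on few reads. Prkg1 was low, at 1.146 CPM in glycerol+melatonin and 4.73 CPM in glycerol muscle. Slc19a2 was also low, at 1.138 CPM in glycerol+melatonin and 6.002 CPM in glycerol muscle. Ppm1a was at 36.7 CPM in glycerol+melatonin and 118 CPM in glycerol muscle. Of the set itself, Dgat2 was nearest at 0.775, with 5.19% of all genes nearer to Gpam, then Lpin1 at 0.877 with 11.8%. Gpat4 was at 1.09, with 42.1% of all genes nearer, and Dgat1 was farthest at 1.18. These distances take in the group difference for which Gpam was chosen, and are a description of 6 libraries.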

How the data were processed

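The authors deposited raw read counts per gene for 6 libraries. The submitters' processing notes name HISAT2 2.0 and the mm10 build, then Trimmomatic 0.36, FastQC 0.11.2, StringTie 1.3.3b, bedtools 2.26.0 and DESeq2 1.12.4, without roles. The annotation and use of strand in counting were not given in the sources used here. Columns were matched to samples by treatment code and replicate number, and the series' text calls the replicates biological.

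Counts were tested with edgeR 4.0.16 (R 4.3.3; quasi-likelihood, TMM factors, filterByExpr, no covariate), which kept 16259 genes, with Benjamini-Hochberg adjustment over all of them and a threshold of 0.05. Intervals use the SE (size over the square root of F) and the t quantile. Transcript lengths came from GENCODE M21 and promoters from RefSeq, both on GRCm38. The script was tested on simulated counts. Within groups, the counts of any pair of libraries differed by more than sampling noise (chi-square over its degrees of freedom, 65.9 to 181). That ratio is taken over all genes together, and genes with very many reads can weigh most in it. For such genes the spread between mice, more than counting error, limits precision. Counting error matters more for genes with few reads, such as Kctd19.

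The members, lists and motifs were chosen with earlier results of these data known. Named genes were the members, up to 4 genes per list with an unadjusted p under 0.05, and the 5 nearest to Gpam, of which 1 is not reported here. Alternatives were library size alone, RLE factors, no filter, DESeq2 1.42.0, a replicate block, a spline correction for transcript length, union exon length and leaving out each library.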

Additional observations from a re-analysis of the deposited data

How the results depend on the processing

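The number of genes past the threshold, 12 by edgeR, was 753 by DESeq2, 7 with the length correction, 0 with the replicate block and 6 to 27 when single libraries were left out, and was 12 to 13 with library size alone, RLE factors or no filter. Over all genes, the same-numbered mice did not deviate together (correlations -0.0492 to -0.0101). With 3 mice per group this cannot exclude a pairing, also not one that touches some genes only. The count among the 10 genes is 1, Gpam, for which the set was chosen, so it is a description. It was 0 with the replicate block and 0 to 1 when single libraries were left out, being 0 without glycerol replicate 1 and without glycerol+melatonin replicate 2. None of the other 9 passed under any of the 12 settings. The log2 fold change of Gpam lay between -2.14 and -1.92 in the settings with all libraries. The shares of Gpam, Agpat1, Lpin1 and Dgat2 in their steps moved by less than the SD between replicates under union exon length.

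Direction was kept by Gpam, Agpat1, Lpin1 and Dgat2 under all 12 settings, and changed for genes near 0. Library size alone, which moved the median of all genes to 0.229, put Gpat3 at 0.17, Agpat3 at 0.14 and Lpin2 at 0.0589. The length correction put Gpat3 at 0.0256, Agpat2 at -0.15 and Agpat3 at 0.0878. Gpat4 was at -0.00921 with RLE factors and -0.00915 with DESeq2. Without single libraries, Gpat3 ranged from -0.30 to 0.25, Gpat4 from -0.0412 to 0.0408, Agpat2 from -0.13 to 0.26, Lpin2 from -0.32 to 0.0741 and Dgat1 from -0.45 to 0.34. The causes were not tested.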
